A study of Mus musculus with 2 samples.

Results

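The protein-synthesis machinery was examined here through the genes that encode its initiation and elongation factors, chosen by symbol alone. Every feature whose name begins with Eif1 to Eif6 or with Eef1 or Eef2 was taken. Left out were pseudogenes, the eIF2 kinases, the eIF4E-binding proteins named Eif4ebp and the eEF1A lysine methyltransferases. This gave 58 genes among the 32285 features of the count tables, and 56 of them had UMIs in both libraries. Eif4e1b and Eif2c5 had none in either library. The symbol rule also takes in Eef1e1, whose product is a scaffold protein of the aminoacyl-tRNA synthetase complex, the eEF2 kinase Eef2k and the eEF2 lysine methyltransferase Eef2kmt. Eif2c5 is annotated as a long intergenic noncoding RNA in GENCODE M21. Not every gene of the list therefore encodes a factor.

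Translation starts when eIF2 brings the initiator tRNA to the small ribosomal subunit, eIF1, eIF1A and eIF3 hold that subunit in a scanning state, and the eIF4 group recruits capped mRNA and unwinds it. eIF5, eIF5B and eIF6 govern subunit joining, after which eEF1A delivers each aminoacyl-tRNA, the eEF1B subunits recharge eEF1A with GTP, and eEF2 moves the ribosome along. eIF5A relieves stalled ribosomes and needs a lysine modified to hypusine, a residue built from spermidine. Muscle stem cells, or satellite cells (SCs), keep protein synthesis low in quiescence and raise it on activation.

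All mice were 8 weeks of age and carried Pax7 CreERT2/+ with Rosa26 mTmG/+, in which a Cre recombinase expressed from the Pax7 locus and activated by tamoxifen switches a membrane reporter from red to green. Muscle stem cells were sorted from their tibialis anterior. The QSC (quiescent SC) library came from uninjured muscle and the ASC (activated SC) library from muscle 1.5 days after injection of cardiotoxin (CTX), which destroys fibres. Each library pooled 5 mice, and each group had 1 library, so a difference between libraries cannot be told apart from a difference between QSCs and ASCs and has no replicate check. All intervals below are 95% intervals that cover counting error only.

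Barcodes were kept at 500 or more genes and 10% or less mitochondrial UMIs, giving 516 with 1162091 UMIs from QSCs and 1468 with 8895815 UMIs from ASCs, and 2 of these barcode sequences occurred in both libraries. Not all of them looked like stem cells. A barcode was called contractile-high when 10 fibre genes such as Acta1 and Ckm took at least 5% of its UMIs. This class held 104 QSC and 939 ASC barcodes, with Pax7 at 9.32 and 2.00 counts per 1000000 UMIs (CPM). The myogenic factor genes Myod1 and Myog were not absent from it, at 14.0 and 0 CPM in QSCs and 166 and 135 CPM in ASCs. The contractile-low muscle class, which leaves out clusters named as immune, stromal or endothelial, held 369 QSC and 418 ASC barcodes. There Pax7 stood at 214 CPM in QSCs and 29.7 CPM in ASCs, Myf5 at 519 and 65.2 CPM, and Myog, which marks differentiating myoblasts, at 34.3 and 946 CPM. A further 16 QSC and 84 ASC barcodes were macrophage/monocyte-like. Depth differed too: the median contractile-low barcode had 2222 UMIs in QSCs and 8400.5 UMIs in ASCs, and the median mitochondrial share was 4.90% and 2.30%. Between 4% and 6% of fibre-gene UMIs, next to the limit, lay 30 kept barcodes, all from ASCs.

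The gene at the centre of the study, Eif5a (ENSMUSG00000078812), lies on the minus strand at chr11:69916714-69921958 of GRCm38, and its relative Eif5a2 (ENSMUSG00000050192) on the plus strand at chr3:28781276-28798846. The stretch from codon 46 to codon 55 is shown for both because it holds the lysine codon that becomes hypusine, codon 50, in capitals. The 30 bases differ at 3 positions between the genes and the lysine codon is the same.
Eif5a: tcgaagactggcAAGcatggccatgccaag
Eif5a2: tccaagactgggAAGcatggtcatgccaag
These coding sequences were read from the GENCODE M21 transcripts. Reads of this 3′ chemistry come from transcript ends, so the codon itself was not examined in these data.

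Together the translation factor genes took 18338 CPM in contractile-low QSCs and 27831 CPM in contractile-low ASCs, against 12178 and 14016 CPM in the contractile-high class and 10958 and 15693 CPM in the macrophage/monocyte-like barcodes. With fibre and mitochondrial UMIs removed from the total the same 6 groups stood at 19758, 29195, 16592, 17773, 11731 and 16464 CPM, so contractile-low ASCs were highest on both scales and the macrophage/monocyte-like ASC barcodes moved from rank 3 to rank 5. Since each captured transcript gives 1 UMI at its 3′ end whatever its length, CPM can be set side by side between genes, though capture may differ from gene to gene. A few genes held most of the UMIs. In contractile-low QSCs the highest were Eef1a1 (3430 CPM), Eef2 (2269 CPM), the scanning factor Eif1 (2208 CPM), the RNA helicase Eif4a1 (1292 CPM), the eEF1B subunit Eef1g (932 CPM) and Eif5a (664 CPM), followed by the eIF3 subunits Eif3f, Eif3h and Eif3k together with Eef1d, at 517 to 584 CPM.

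**Figure D1:**
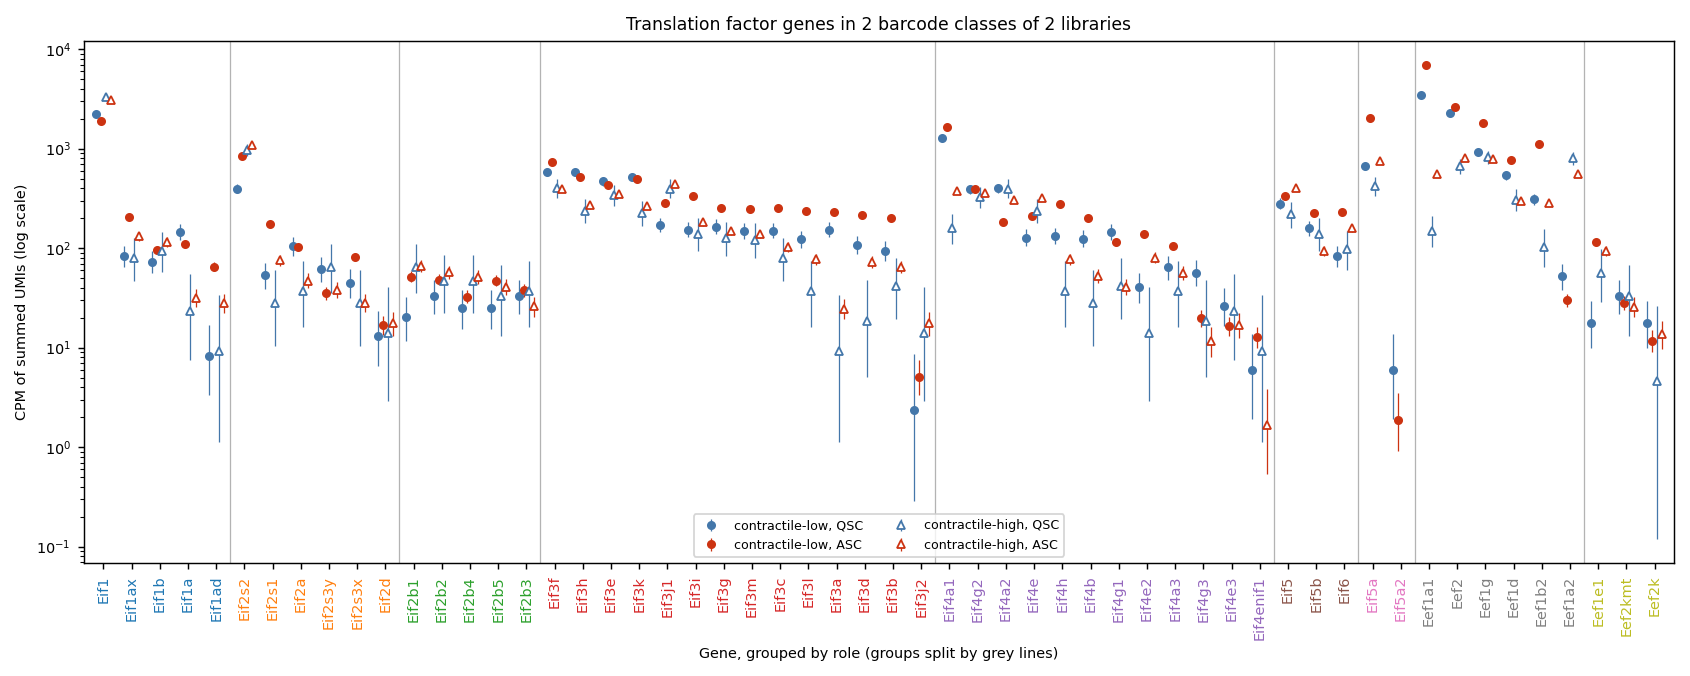
CPM of summed UMIs on a log scale for the 56 translation factor genes with UMIs, grouped by role, in the contractile-low (filled circles) and contractile-high (open triangles) barcodes of the QSC (blue) and ASC (red) libraries; error bars are 95% counting intervals, and genes without UMIs in a group have no symbol there. Eef1a1 spans 149 to 6933 CPM, whereas Eif1 stays between 1885 and 3273 CPM.

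Eif5a was one of the most abundant members in every class. Among contractile-low QSCs it ranked 6 of 56 genes with 664 CPM (611 to 722), which overlapped Eif3f below it (584 CPM, 534 to 638) and not Eef1g above it (932 CPM, 868 to 999). Contractile-low ASCs had 2025 CPM (1987 to 2064), rank 3, below Eef2 (2602 CPM) and above Eif1 (1885 CPM, 1849 to 1923). By cluster, as described below, Eif5a ranked 2 in cluster 5 of these ASCs and 6 in clusters 1 and 10. Its part of all translation factor UMIs was 3.62% (3.33 to 3.93) in these QSCs and 7.28% (7.14 to 7.41) in these ASCs. Contractile-high barcodes had 420 CPM (337 to 516) in QSCs, rank 6, and 755 CPM (724 to 787) in ASCs, rank 5 and not separated from Eef1g at 790 CPM (758 to 822). The macrophage/monocyte-like barcodes had 398 CPM (212 to 680) from 13 UMIs in QSCs and 805 CPM (731 to 885) in ASCs. Eif5a was thus higher in ASCs than in QSCs in all 3 classes, which share the same 2 libraries. Myog stood at 54.3 CPM in macrophage/monocyte-like ASC barcodes and 0 in QSC ones, where 3 UMIs would be 91.8 CPM. The part of such muscle RNA in the Eif5a levels was not tested. Contractile-high ASC clusters of at least 20 barcodes ran from 540 CPM (460 to 629) in cluster 6 to 1030 CPM in cluster 3. The cluster 6 interval overlaps that of contractile-high QSCs. Eif5a2 had 5 UMIs over all kept QSC barcodes and 11 over all kept ASC barcodes, and none in the contractile-high class.

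The first comparison asked how these genes differed between the libraries when fibre-rich and non-muscle barcodes were set aside. Of the 58 genes, 51 reached a mean of 20 CPM over both groups. Of these, 15 were at least 2-fold higher in ASCs, where 17.7% of all 5114 genes passing the same limit were, and 2 were at least 2-fold lower, where 20.7% of all genes were. The median log2 ratio of ASC over QSC was 0.61 over the 51 genes and 0.02 over all genes, and 38 of the 51 lay above 0. A gene with little signal in QSCs could pass the limit through ASCs alone, as Eif1ad (8.28 and 65.0 CPM) and Eef1e1 (17.7 and 115 CPM) did.

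**Figure D2:**
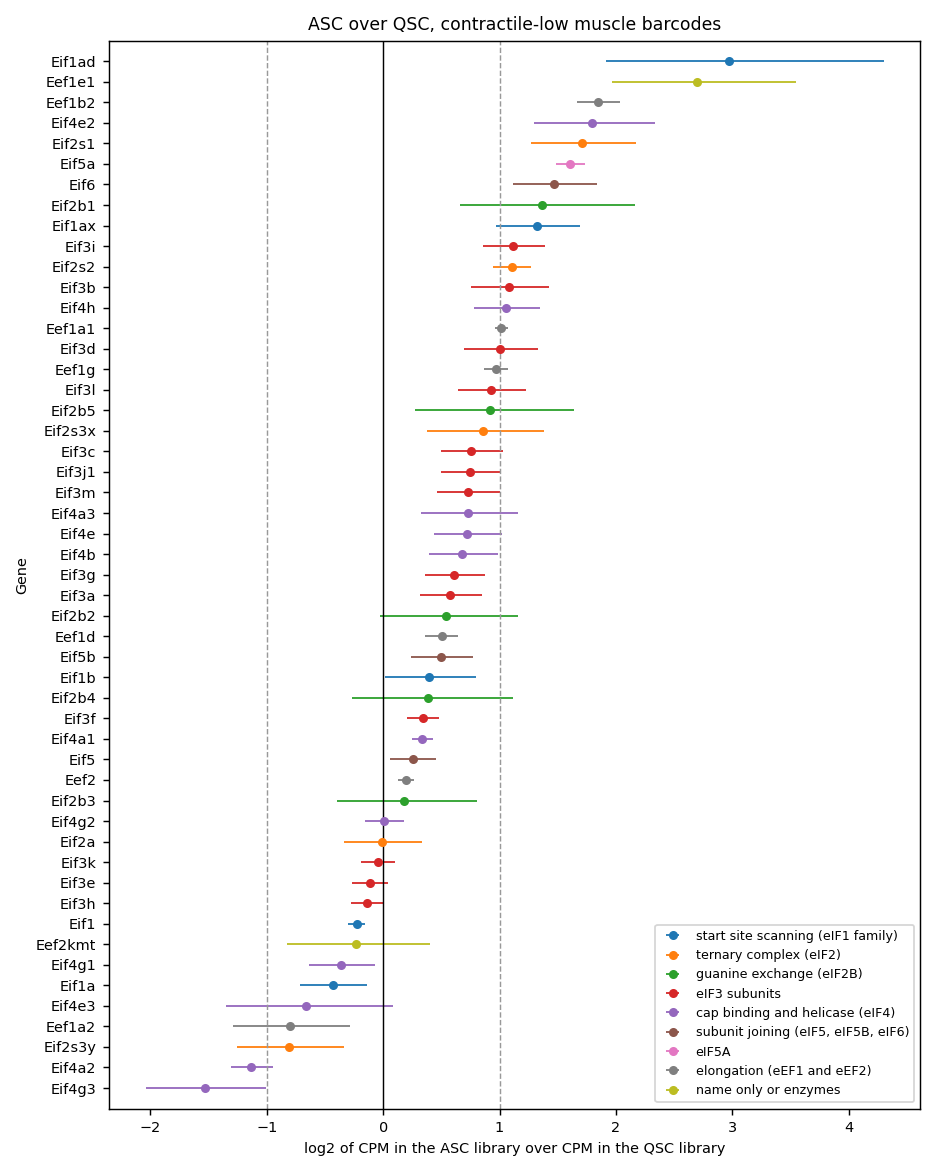
log2 of CPM in the ASC library over CPM in the QSC library for the 51 translation factor genes tested in contractile-low muscle barcodes, coloured by role; bars are 95% counting intervals and dashed lines mark 2-fold. The genes run from Eif4g3 at -1.53 to Eif1ad at 2.97, and Eif5a stands at 1.61.

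Elongation factors made up the largest part of the difference in summed level, with 7529 CPM in QSCs and 13267 CPM in ASCs. Eef1a1, which delivers aminoacyl-tRNA, had 3430 CPM in QSCs and 6933 CPM in ASCs, which is 1.02 on the log2 scale (0.96 to 1.07). Eef1b2, an exchange factor for eEF1A, had 310 CPM in QSCs and 1115 CPM in ASCs, 1.85 on the log2 scale (1.67 to 2.03). Its partner Eef1g lay just short of 2-fold at 0.97 (0.87 to 1.08), while Eef1d (0.50) and Eef2 (0.20, 0.13 to 0.27) differed less. Eef1a2, the eEF1A gene of mature muscle and neurons, was the only one of these 6 genes with a ratio below 0, at -0.80 (-1.29 to -0.29), on 44 and 158 UMIs. Its level in this class was no higher than in macrophage/monocyte-like barcodes beyond counting error, at 61.2 and 39.3 CPM there, so no difference in expression is read from this ratio. Eef2k, whose product phosphorylates and inhibits eEF2, was below the limit with 15 and 62 UMIs.

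Eif5a stood at 1.61 (1.49 to 1.73), 3.05-fold higher in the ASC library and rank 6 by ratio among the 51 genes. Only Eif1ad, named for its eIF1A domain, at 2.97 (1.91 to 4.30), Eef1e1 at 2.70 (1.96 to 3.54), Eef1b2, the cap-binding paralogue Eif4e2 at 1.80 (1.30 to 2.34) and the eIF2 alpha subunit gene Eif2s1 at 1.70 (1.27 to 2.17) were above it, and none of these 5 had as many UMIs in QSCs. Eef1a1, Eef2, Eif1, Eif4a1 and Eef1g, which had more QSC UMIs than Eif5a, had smaller ratios.

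Initiation factor genes differed in how far apart the libraries stood. Of the eIF2 subunit genes, the alpha subunit Eif2s1 was 53.2 CPM in QSCs and 173 CPM in ASCs (1.70), and the beta subunit Eif2s2 396 and 852 CPM (1.10, 0.94 to 1.27). The Eif2s2 ratio fell short of 2-fold without cluster 5 (0.81), without the 5% deepest barcodes (0.97) and as a mean of single-barcode CPM (0.98). Eif2a, which is not an eIF2 subunit despite its name, was 104 CPM in each library (-0.01, and 0.31 with TMM scaling). The 5 eIF2B genes, which encode the exchange factor of eIF2, ran from 0.18 for Eif2b3 to 1.36 for Eif2b1, and as means of single-barcode CPM Eif2b3 (-0.25) and Eif2b4 (-0.02) were below 0. Of 13 eIF3 genes tested, Eif3i (1.12), Eif3b (1.08) and Eif3d (1.005) passed 2-fold, 10 were above 0, and Eif3k (-0.05), Eif3e (-0.12) and Eif3h (-0.14) were near 0, above it with TMM scaling at 0.27, 0.20 and 0.18. The anti-association factor gene Eif6 was at 82.8 CPM in QSCs and 228 CPM in ASCs (1.46, 1.12 to 1.83), and its ratio was 0.76 without cluster 5 and 0.95 without the 5% deepest barcodes.

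The eIF4 group held both members that were at least 2-fold lower in ASCs. Eif4a2, the second eIF4A helicase gene, had 401 CPM in QSCs and 183 CPM in ASCs, -1.13 (-1.31 to -0.95), and the scaffold gene Eif4g3 had 56.7 and 19.6 CPM, -1.53 (-2.04 to -1.01). The Eif4a2 value was -0.81 with TMM scaling, -0.77 without cluster 5, -0.86 without the 5% deepest barcodes and -0.79 as a mean of single-barcode CPM, so it no longer reached 2-fold in these settings. Eif4a1 was 0.34 (0.24 to 0.43), so that Eif4a2 made up 23.7% (21.5 to 26.0) of the UMIs of this pair in QSCs and 10.1% (9.49 to 10.7) in ASCs. The ASC share was 6.07% in cluster 5, and 16.1% and 16.3% in clusters 1 and 10. The cap-binding gene Eif4e differed by 0.72 (0.44 to 1.02), Eif4g1 by -0.36 and Eif4g2 by 0.01 (-0.03 without fibre and mitochondrial UMIs). Markers of other cells also differed within the class: the summed level of 13 fibroblast markers was 4389 CPM in QSCs, with UMIs for 13 of them, and 1044 CPM in ASCs, with UMIs for 10, and that of 6 erythroid markers was 131 and 1680 CPM with UMIs for 4 and 5. Their part in the ratios of these genes was not tested.

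The X-linked and Y-linked copies of the eIF2 gamma subunit also parted. Eif2s3x had 44.9 CPM in QSCs and 81.6 CPM in ASCs, a log2 ratio of 0.86 (0.38 to 1.38), and Eif2s3y had 61.5 and 35.1 CPM, -0.81 (-1.26 to -0.33). Ddx3y, a Y-linked helicase gene named after its values were seen, had 148 and 44.8 CPM. Its X-linked partner Ddx3x was lower in ASCs too, at 179 and 101 CPM (-0.82, -1.08 to -0.55), unlike Eif2s3x, and Xist had no UMI in either library. The Y-linked genes Uty (18.9 and 7.74 CPM) and Kdm5d (8.28 and 2.64 CPM, on 7 and 14 UMIs) were also lower in ASCs, so the direction of Eif2s3y was shared by these Y-linked genes. In the contractile-high class Eif2s3x stood at 0.02 (-1.17 to 1.50), on 6 and 85 UMIs, and Eif2s3y at -0.77 (-1.58 to 0.14). The end of Eif2s3x matches a processed pseudogene over 428 bases at 100% identity, so its UMIs are uncertain.

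The ASC library was not uniform in Eif5a. Its contractile-low barcodes fell mainly into 3 clusters: cluster 1 with 237 barcodes and a median of 5656 UMIs, cluster 10 with 46 barcodes, a median of 11888.5 UMIs and the differentiation genes Myog and Mymk among its leading genes, and cluster 5 with 103 barcodes, a median of 27551 UMIs and replication and mitosis genes such as Rrm2, Cdc20 and Birc5 in the lead. Cluster 1 had Eif5a at 1171 CPM (1122 to 1221) and cluster 10 at 1320 CPM (1230 to 1415). Eif5a ranked 6 in both, as in contractile-low QSCs, with 4.35% and 4.42% of translation factor UMIs. Cluster 5 had it at 2815 CPM (2750 to 2881), rank 2 behind Eef1a1, so that it gave 9.98% of translation factor UMIs there. Of the 10722 Eif5a UMIs in contractile-low ASCs, 7191 came from cluster 5, which held 2554503 of the 5294529 UMIs of the class. The 238 contractile-low QSC barcodes of cluster 2 had 704 CPM, and the 65 QSC barcodes that also fell into cluster 5, with a median of 1798 UMIs, had 453 CPM. The leading genes were taken over all kept barcodes of a cluster, from both libraries. The proliferation gene Mki67 had 34.4 CPM in contractile-low ASC cluster 5, 24.6 CPM in cluster 1 and 8.29 CPM in cluster 10. In those 65 QSC barcodes Mki67 had 0 CPM and Pax7 198 CPM.

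**Figure D3:**
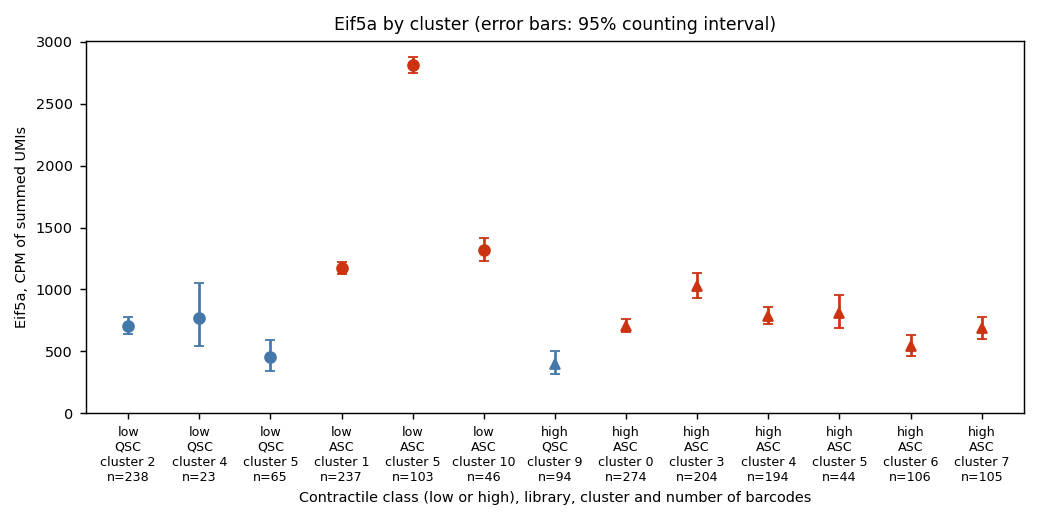
Eif5a level, in CPM of summed UMIs with 95% counting intervals, in each cluster with at least 20 barcodes of a class and library (circles contractile-low, triangles contractile-high, blue QSC, red ASC). Contractile-low ASC cluster 5 stands at 2815 CPM and the other 12 groups between 401 and 1320 CPM.

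The same held at equal depth. After each barcode was thinned to 1000 UMIs, 42.5% (37.4 to 47.7) of contractile-low QSC barcodes and 65.2% (60.4 to 69.8) of contractile-low ASC barcodes had an Eif5a UMI, compared with 73.7% and 97.4% before thinning, and 2 and 4 shallower barcodes were left out. By cluster the thinned share was 44.5% (38.1 to 51.1) in QSC cluster 2, 53.2% (46.6 to 59.8) in ASC cluster 1, whose intervals overlap, 73.9% (58.9 to 85.7) in ASC cluster 10 and 89.3% (81.7 to 94.5) in ASC cluster 5. When the contractile-low ASC barcodes were split into 4 equal parts by depth, Eif5a was 1060, 823, 1389 and 2656 CPM from the shallowest to the deepest part, and cluster 5 held 9.52%, 7.62%, 11.5% and 70.2% of their barcodes. Eif5a was thus highest in the deepest part, where cluster 5 was most frequent, but did not rise at every step of depth. In contractile-low QSCs split likewise it was 587, 643, 647 and 732 CPM, while cluster 5 held 36.6%, 20.7%, 8.70% and 4.35% of barcodes. The part of depth and of cluster 5 in the result was not tested. Without the barcodes of cluster 5 the Eif5a ratio of ASC over QSC was 0.88 and no longer reached 2-fold, without the 5% deepest barcodes it was 1.14, and as a mean of single-barcode CPM it was 1.20. At a mitochondrial limit of 1%, which left 1 contractile-low QSC barcode, it was -0.18. The count of 15 genes higher in ASCs became 6, 9, 9 and 4 in these settings, where 12.1%, 12.9%, 12.6% and 1.65% of all genes were higher, so without cluster 5 the members' share of calls was near that of all genes. The 6 genes that passed 2-fold without cluster 5 were Eif1ad, Eef1e1, Eef1b2, Eif2s1, Eif4e2 and Eef1a1. The others besides Eif5a stood at 0.97 (Eif3i), 0.88 (Eif4h), 0.86 (Eif1ax), 0.81 (Eif2s2), 0.79 (Eif3d), 0.76 (Eif6), 0.63 (Eif3b) and 0.55 (Eif2b1).

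Set against cluster 1, cluster 5 had 6 of 50 tested members at least 2-fold higher, where 7.92% of all genes were, and none lower, where 12.9% of all genes were. Since the clusters were drawn from the same cells, these values are a description. The 6 genes were Eif1ad (1.31), Eif5a (1.27, 1.20 to 1.34), Eef1e1 (1.15), Eif2b3 (1.15), Eif2b1 (1.06) and Eif6 (1.05). Eef1a1 was not among them, with 8019 CPM in cluster 1 and 5862 CPM in cluster 5, and it was highest in cluster 10 at 8691 CPM. Eif5a and Eef1a1 were therefore highest in different clusters.

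The second comparison set contractile-high against contractile-low barcodes within each library. In ASCs, 21 of 49 tested members were at least 2-fold lower in the contractile-high barcodes, where 33.9% of all genes were, and 1 was higher, where 19.6% were. With TMM scaling the split was 14 lower and 6 higher, where 25.01% and 28.8% of all genes were. The median log2 ratio was -0.91 over the members and -0.23 over all genes. In QSCs, where the contractile-high class rests on 104 barcodes, 17 of 50 members were at least 2-fold lower, where 42.0% of all genes were, and 5 were higher, where 25.0% were, with medians of -0.42 and -0.46. Of 48 members tested in both libraries, 32 were below 0 in both, 10 above 0 in both and 6 of opposite sign, and of all 3689 genes tested in both 1637, 1418 and 634 were. Among the 48, 13 (27.1%) were at least 2-fold lower in both libraries, where 26.1% of all genes were. A contractile limit of 2% in place of 5% gave 12 lower members in ASCs and 9 in QSCs, where 22.3% and 23.4% of all genes were lower.

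**Figure D4:**
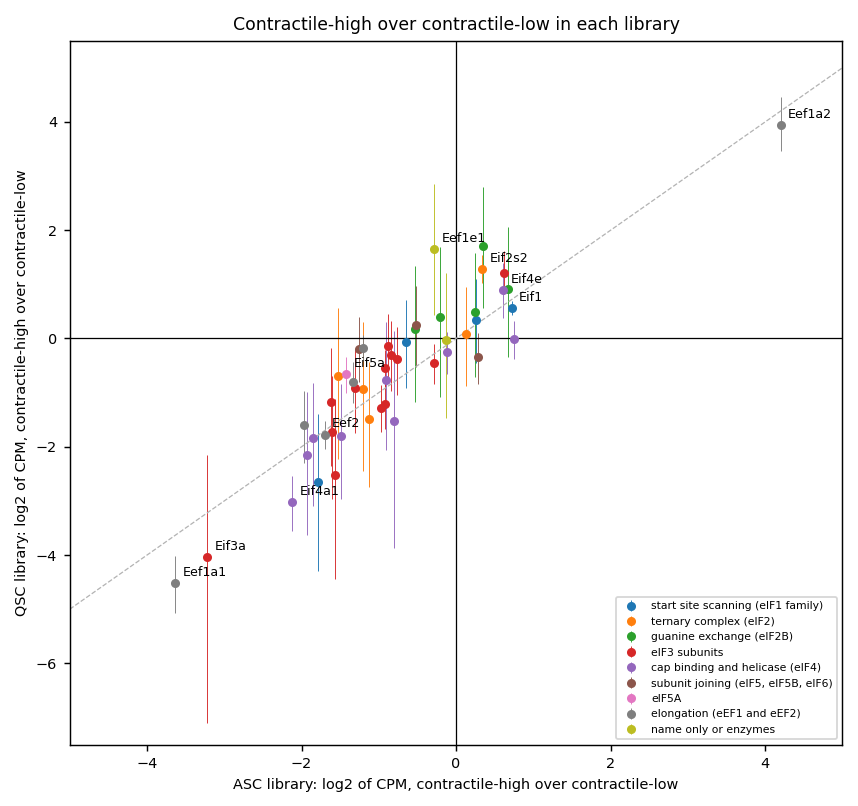
log2 of CPM in contractile-high over contractile-low barcodes for the 48 members tested in both libraries, with the ASC library on the horizontal and the QSC library on the vertical axis; bars are 95% counting intervals of the QSC value and the dashed line marks equal ratios. Eef1a2 stands alone at the upper right (4.204 and 3.95) and Eef1a1 at the lower left (-3.64 and -4.52).

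The eEF1A genes differed in opposite directions between the classes. Eef1a1 had 3430 and 6933 CPM in the contractile-low barcodes of QSCs and ASCs and 149 and 558 CPM in the contractile-high barcodes. Eef1a2 had 52.0 and 29.8 CPM in the contractile-low barcodes and 802 and 550 CPM in the contractile-high barcodes, the highest ratio of all members in either library. Eef1a2 therefore made up 1.49% (1.09 to 2.00) of the eEF1A UMIs of contractile-low QSCs and 0.429% (0.364 to 0.501) of those of ASCs, and 84.3% (78.6 to 89.0) and 49.7% (47.9 to 51.4) in the contractile-high class. The contractile-high share in ASCs was 26.7% in cluster 3 and 39.4% to 65.8% in the other 5 clusters with at least 20 barcodes, and moved with the limit, from 15.2% when 2% of UMIs sufficed for the class to 59.3% at 10%.

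Eef1a2 UMIs were also seen outside the contractile-high class. At 1000 UMIs per barcode, Eef1a2 was seen in 5.18% (3.15 to 7.97) of contractile-low QSC barcodes and 4.11% (2.41 to 6.49) of ASC barcodes, and in 1 of 16 and 4 of 83 macrophage/monocyte-like barcodes, 6.25% (0.158 to 30.2) and 4.82% (1.33 to 11.9). The median barcode before thinning had 2224, 8483, 2024.5 and 6382 UMIs in these groups, and the unthinned shares were 11.7%, 27.0%, 12.5% and 20.2%. The contractile-low shares were not above those of the macrophage/monocyte-like barcodes beyond counting error, which is wide for these few barcodes, so neither expression nor a difference between libraries is read from them. Where these UMIs came from was not tested. In contractile-high barcodes the thinned share was 47.1% (37.2 to 57.2) in QSCs and 38.9% (35.7 to 42.2) in ASCs. Per 1000 UMIs of the 10 fibre genes, Eef1a2 gave 4.59 and 3.95 UMIs in the contractile-high class, 3.23 and 1.67 in the contractile-low class and 3.06 and 1.74 in the macrophage/monocyte-like barcodes.

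**Figure D5:**
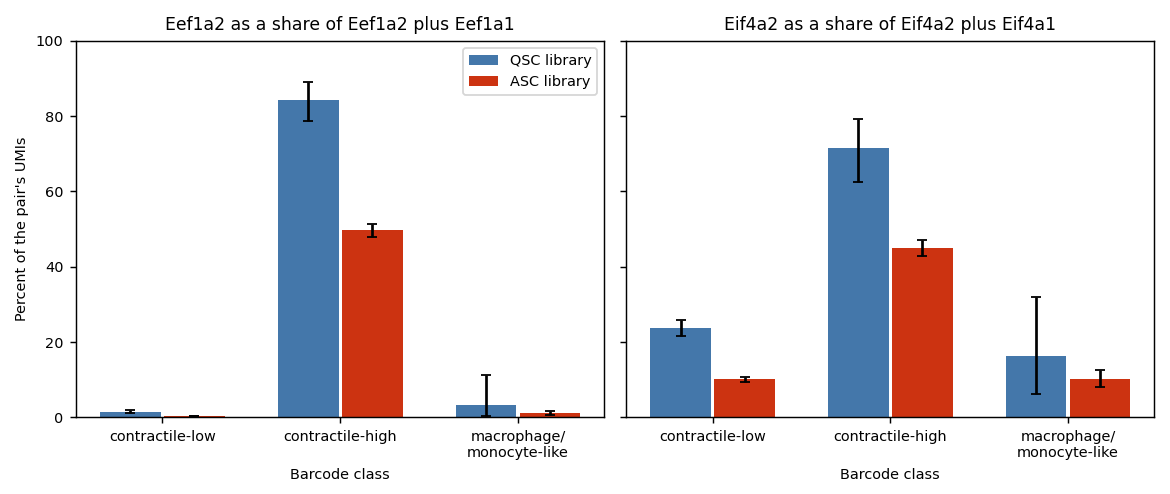
Share of the pair's UMIs that came from Eef1a2 (left, with Eef1a1) and from Eif4a2 (right, with Eif4a1) in contractile-low, contractile-high and macrophage/monocyte-like barcodes of the QSC (blue) and ASC (red) libraries, in percent with exact 95% binomial intervals. Both shares are highest in contractile-high QSC barcodes, at 84.3% and 71.4%.

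The shares of the eIF4A helicase genes differed as well. Eif4a1 was lower in contractile-high barcodes by a log2 ratio of -2.12 (-2.21 to -2.03) in ASCs and -3.03 (-3.56 to -2.54) in QSCs, whereas Eif4a2 differed by 0.75 (0.62 to 0.88) and -0.02 (-0.38 to 0.33, and 0.32 without fibre and mitochondrial UMIs). Eif4a2 thus made up 71.4% (62.4 to 79.3) of the pair's UMIs in contractile-high QSCs and 45.1% (42.9 to 47.2) in contractile-high ASCs. In both libraries the difference in Eif4a1 was the larger one.

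Other members differed between the classes as well, in shares given above beside those of all genes. Eif3a, the largest eIF3 subunit, was 229 CPM in contractile-low and 24.6 CPM in contractile-high ASCs, -3.22 (-3.58 to -2.88), and 130 and 2 UMIs in QSCs, -4.04 (-7.10 to -2.16). The helicase cofactors Eif4b (-1.93 and -2.15 in ASCs and QSCs) and Eif4h (-1.85 and -1.84), the scanning factor gene Eif1a (-1.79 and -2.65), Eef2 (-1.70 and -1.78) and Eef1b2 (-1.97 and -1.59) were also lower in both libraries. Eif5a differed by -1.42 (-1.49 to -1.36) in ASCs and by -0.66 (-1.001 to -0.34) in QSCs, less than Eef2 in both. The contractile-low ASC level of Eif5a was uneven, at 2815 CPM in cluster 5 and 1171 and 1320 CPM in clusters 1 and 10. Without cluster 5, 18 of the 22 calls between the classes in ASCs were kept, and 7 of the 49 ratios changed sign. In contrast, Eif1 was the most abundant member of the contractile-high class, at 3273 CPM in QSCs and 3108 CPM in ASCs, and its ratio was 0.57 (0.44 to 0.69) and 0.72 (0.68 to 0.76). Eif2b1 (1.70 and 0.35), Eif2s2 (1.28 and 0.34), Eif3j1, a loosely bound eIF3 subunit (1.22 and 0.62), and Eif4e (0.90 and 0.61) were above 0 in both as well, the first value being that of QSCs. Among the 6 members of opposite sign was Eef1e1, at 1.66 (0.43 to 2.85) on 12 contractile-high UMIs in QSCs and -0.28 (-0.49 to -0.08) in ASCs, a sign that TMM scaling turned (0.13).

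Within the contractile-high class, ASCs and QSCs were also compared, as fibre-rich barcodes of injured and uninjured muscle. Levels of Myod1 and Myog in this class also differed between the libraries, as given above, and their part in the ratios was not tested. Of 48 tested members 8 were at least 2-fold higher in ASCs, where 16.3% of all genes were, and none were lower, where 10.2% were. The highest ratios rested on few QSC UMIs: Eif4e2 at 2.52 (0.95 to 4.81) on 3 UMIs and Eif3d at 1.97 (0.60 to 3.86) on 4. Eef1a1 was better counted, at 1.90 (1.40 to 2.45) on 32 and 1677 UMIs, followed by Eef1b2 at 1.48 (0.87 to 2.16) and Eif4a1 at 1.24 (0.75 to 1.78). The others were Eif2s1 at 1.43 and Eif4h and Eif3l at 1.05 each, on 6 to 8 QSC UMIs. Of these 8 calls, 4 were kept with a contractile limit of 2%, where 10 of the 48 ratios changed sign. At a limit of 10%, 6 were kept, and also 6 without fibre and mitochondrial UMIs. Eif5a was 0.85 (0.54 to 1.17), and Eef1a2 -0.54 (-0.77 to -0.31). With all kept barcodes pooled, 8 of 51 members were at least 2-fold higher in ASCs, where 14.0% of all genes were, and 1, Eif4g3, was lower, where 19.5% were. In that pool, which mixes the classes in other proportions in each library, the 8 genes were Eif1ad (2.43), Eef1e1 (2.17), Eif4e2 (1.63), Eef1b2 (1.62), Eif2s1 (1.50), Eif5a (1.35), Eif6 (1.25) and Eif1ax (1.14).

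The other genes of translation control were taken from a list of 5 groups. Among cytosolic aminoacyl-tRNA synthetases and their scaffold proteins, 5 of 21 were at least 2-fold higher in contractile-low ASCs, where 17.7% of all genes were. None were lower, where 20.7% of all genes were, and 20 were above 0, with a median log2 ratio of 0.74. The valyl-tRNA synthetase gene Vars (1.92), the scaffold gene Aimp2 (1.44) and Aars (1.35) were furthest. Of the enzymes that modify factors, Dohh, which completes hypusine on eIF5A, had 35.5 CPM in QSCs and 98.03 CPM in ASCs (1.47, 0.94 to 2.05), and Dhps, which begins it, had 22.5 and 36.6 CPM (0.71, 0.02 to 1.47). With Eef1akmt1 (0.96) these were the 3 of 7 that reached the limit.

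In the group of 4E-BPs and signalling genes, Eif4ebp1, an eIF4E-binding repressor, was higher in ASCs at 1.67 (1.35 to 2.00), whereas Pdcd4, which blocks the eIF4A helicase, had 100 and 24.4 CPM, -2.04 (-2.45 to -1.63), and the eIF4E kinase gene Mknk2 was -1.36. Of the 7 genes of this group tested, 2 were at least 2-fold higher and 2 lower. For this group and those that follow, the shares of all genes were again 17.7% higher and 20.7% lower. In the eIF2 stress group 2 of 4 tested genes were at least 2-fold lower, namely Ppp1r15a, the inducible cofactor of the phosphatase acting on eIF2 alpha, at 947 CPM in QSCs and 134 CPM in ASCs (-2.82, -2.97 to -2.67), and Ppp1r15b (-1.04), while Atf4 was 0.58. Of 7 genes for poly(A) binding, termination and recycling, Pabpc4 (2.02) and the release factor Etf1 (1.03) were at least 2-fold higher, Paip1 (-1.31) was lower, and the abundant Pabpc1 was 828 and 816 CPM (-0.02, -0.14 to 0.10).

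Promoters were searched for the E-box CACGTG, a palindrome read alike on both strands and bound by MYC and related factors. The RefSeq table of GRCm38.p6, which gives 250 bases before and 50 after each annotated start, had entries for 46 members with 60 starts. The motif was in 14 of the 60 (23.3%), compared with 2349 of all 32851 promoters (7.15%), and counted by gene in 12 of 46 members (26.1%), compared with 8.09% of all genes. Of the 13 members with an entry that were at least 2-fold higher in contractile-low ASCs, 2 (15.4%) had it, Eif5a and Eif4h. For Eif5a, 3 of 6 annotated starts had it. The 120 bases from 110 before to 10 after 1 start are shown for Eif5a and for the 3 elongation factors above, with each CACGTG in capitals. It lies 74 bases before the start in Eif5a and 43 in Eef2, and neither Eef1a1 nor Eef1a2 has it in the window.
Eif5a, chr11:69921377-69921496, minus strand: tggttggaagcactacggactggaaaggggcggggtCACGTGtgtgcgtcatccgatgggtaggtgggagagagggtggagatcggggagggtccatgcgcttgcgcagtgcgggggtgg
Eef2, chr10:81176521-81176640, plus strand: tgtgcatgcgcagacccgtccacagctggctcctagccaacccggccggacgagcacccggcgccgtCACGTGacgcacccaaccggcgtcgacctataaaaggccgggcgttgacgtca
Eef1a1, chr9:78481715-78481834, minus strand: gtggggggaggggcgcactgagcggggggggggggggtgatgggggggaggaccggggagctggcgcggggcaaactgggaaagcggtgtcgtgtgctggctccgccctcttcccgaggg
Eef1a2, chr2:181157006-181157125, minus strand: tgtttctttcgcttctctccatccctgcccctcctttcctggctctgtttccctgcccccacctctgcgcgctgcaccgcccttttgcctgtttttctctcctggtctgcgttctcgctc
A match describes letters and is not a measured binding site. The background held all annotated promoters, whether or not the gene was expressed here, so nothing particular to these genes is read from the shares.

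Some counts carry a further limit. The members lie on 18 chromosomes, 3 of them on X and 1 on Y, 20 overlap an annotated gene on the same strand, and 17 one on the opposite strand. For 13 members a stretch of at least 91 bases within the last 500 matched a transcript of another gene at 98% identity or more. Among those transcripts were processed pseudogenes of Eef1a1, Eef1g, Eif1, Eif2s2, Eif2s3x, Eif3m, Eif4a2, Eif4a3, Eif4e and Eif5a. For Eif3j2 that transcript was Eif3j1, so the UMIs of these genes are uncertain.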

How the data were processed

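Single-cell 3′ libraries (10x Genomics v2 chemistry) were made from sorted QSCs and ASCs, 1 library each. The authors deposited whole UMI counts per gene and barcode. The file headers name Cell Ranger 6.0.2, whereas the submitters' processing notes name Cell Ranger 7.1.0, Seurat 4.1.0, R 4.1.2 and build mm10; annotation and strand handling are not given in the sources used here. The study's limit of 1% mitochondrial UMIs would have left 1 contractile-low QSC barcode, so 10% was used. Clustering followed the study's settings in Seurat 5.3.0 with R 4.3.3 (1082 variable genes without members, 10 principal components, resolution 0.6, 14 clusters); 7 clusters were named from fixed markers. Doublets were not removed, and 4 barcode sequences occurred in both deposited libraries. UMIs were summed per class and scaled to CPM. Levels carry exact Poisson, ratios exact conditional binomial and shares exact Clopper-Pearson intervals (scipy 1.17.1). Genes with a mean of at least 20 CPM over both groups, without the 13 mitochondrial genes, were tested for a 2-fold difference. With 1 library per group no p-value was computed. PCR duplicates were collapsed by UMI. A count of 3 is 3.55 CPM in contractile-low QSCs and 0.567 CPM in contractile-low ASCs; against 0 a floor of 3 counts per class was used, and no ratio was given where both groups had at most 3. The calculation was checked on simulated counts. Members and gene lists were chosen with earlier results of these data known. Named genes were, per comparison, up to 8 members furthest past 2-fold each way, the 12 highest per class, 11 fixed members and up to 3 genes each way of each control group; other members are given where their complex is described. Locations are from GENCODE M21 (GRCm38), promoters from RefSeq (GRCm38.p6).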

Additional observations from a re-analysis of the deposited data

Results flagged for a closer look

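The scaffold gene Eef1e1 differed in opposite directions between the libraries when contractile-high was set over contractile-low barcodes, at -0.284 in the ASC library and 1.66 in the QSC library on the log2 scale. It was singled out because both counting intervals left out 0 on opposite sides, which no other member tested in both libraries showed. The QSC value rests on 15 and 12 UMIs. At the 1% mitochondrial limit, which left 1 contractile-low QSC barcode, it was -3.52. TMM scaling turned the sign of the ASC value, as given above. The difference itself was not tested, since each group had 1 library.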

How the results depend on the processing

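No paired analysis was possible because each group had 1 library. Beside each count stands the share of all genes called in that setting. In contractile-low barcodes the 15 higher in ASCs became 24 with TMM scaling (27.04%), 9 as means of single-barcode CPM (12.6%), 9 without the 5% deepest barcodes (12.9%), 6 without cluster 5 (12.1%) and 4 at a mitochondrial limit of 1% (1.65%). The 2 lower became 1 (14.6%), 1 (17.04%), 1 (17.2%), 1 (15.9%) and 20 (78.9%) in these settings, and 1 at a minimum mean of 50 CPM (18.4%); Eif4a2 was the gene lost in the first 4. Leaving out cluster 5 was chosen after seeing the data. TMM scaling moved the median of all genes there from 0.02 to 0.34. Eif5a (1.61) stood at 1.92, 1.20, 1.14, 0.88 and -0.18 in the first 5 settings in turn. The limit of 1%, which left 1 contractile-low QSC barcode and 46 ASC barcodes, also turned Eif4e2 (-1.92), Eif2s2 (-0.35), Eif6 (-0.68), Eif2b1 (-3.16), Eif4h (-1.09), Eif2s1 (-0.90), Eef1e1 (-1.81), Eif3d (-1.16) and Eif1ad (-2.59), the contractile-high over contractile-low ratios of QSCs for Eif3j1 (-0.52), Eif2s2 (-0.43), Eif2b1 (-2.99), Eif3k (0.22), Eef1e1 (-3.52) and Eif3h (0.32), and the ratio of Eif4g3 in all kept barcodes (0.12).

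With all kept barcodes, the 8 higher became 18 with TMM scaling (22.8%), and 5 as single-barcode means (13.6%), without the 5% deepest (12.5%) and without cluster 5 (11.1%). The 1 lower became 0 at 1% mitochondrial UMIs (10.1%) and at 50 CPM (15.7%), and 2 as single-barcode means (22.9%) and with no filter on low values (30.97%). No filter gave 1 lower in place of 0 in contractile-high barcodes (23.6%). Of contractile-high over contractile-low, the 1 higher in ASCs became 6 with TMM scaling (28.8%) and 2 without fibre and mitochondrial UMIs (26.1%), as single-barcode means (20.6%) or with no filter (17.7%), and the 21 lower became 12 with a contractile limit of 2% (22.3%). The 5 higher in QSCs became 2 at that limit (17.4%) and at 1% mitochondrial UMIs (3.98%) and 3 at 50 CPM (31.6%), and the 17 lower became 9 at that limit (23.4%). The Eef1a2 share (49.7%) was 15.2% and 59.3% at contractile limits of 2% and 10%, 46.9% as single-barcode means and 52.2% at 1% mitochondrial UMIs. Apart from these settings' own construction, the causes were not tested.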

Other observations

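Barcodes that the limits left out also held Eif5a UMIs. Its level was 394 CPM in 246 QSC barcodes with under 500 genes and 715 CPM in 163 such ASC barcodes.

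In macrophage/monocyte-like ASC barcodes Eef1a1 led the translation factors and Eef1a2 gave 1.13% (0.698 to 1.72) of the eEF1A UMIs. Eif4a2 gave 10.3% (8.21 to 12.7) of the eIF4A pair there.

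The share of Eif1a in the UMIs of the pair Eif1a and Eif1ax, which encode eIF1A, was 63.9% (56.7 to 70.7) in contractile-low QSCs and 34.6% (32.3 to 36.9) in contractile-low ASCs. That of Eif4e2 with Eif4e was 23.9% (17.2 to 31.8) and 39.8% (37.6 to 42.1).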
